A study of Mus musculus with 23 samples.

Results

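The genes described here are 44 cell cycle genes, 23 of S phase and 21 of G2 and mitosis (G2/M), taken by symbol from the 32285 genes of the single-cell matrices of bone marrow (BM), lymph node (LN) and spleen. The rule names genes of known function and uses no measured value, but the list was drawn up with earlier results of these data known. The S genes were Mcm2 to Mcm7, Pcna, Rrm1, Rrm2, Tyms, Ung, Gins2, Cdc6, Cdt1, Uhrf1, Slbp, Cdc45, Fen1, Pola1, Ccne1, Ccne2, E2f1 and E2f8. The G2/M genes were Top2a, Mki67, Cdk1, Ccnb1, Ccnb2, Ccna2, Bub1, Aurka, Aurkb, Plk1, Cenpe, Cenpf, Cenpa, Birc5, Ube2c, Cdc20, Tpx2, Nusap1, Hmmr, Kif11 and Tacc3.

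The C57BL/6 mice (C57BL/6N in the study's methods) carried a germline substitution of a tyrosine in STAT5B, a transcription factor that cytokine receptors activate, either to phenylalanine (Y665F, described as gain of function) or to histidine (Y665H, described as loss of function), or neither (WT). All mice were 2 months old and every group carries its allele in all cells, so changes within a cell and changes from its surroundings are not separated. Gene expression was measured in 16 libraries, which are 2 WT, 2 Y665H and 2 Y665F for BM, 2 WT, 3 Y665F heterozygous and 2 Y665F homozygous for LN, and 1 each of WT, Y665H and Y665F for spleen. Spleen libraries held CD45+ cells combined from 3 mice per genotype. Zygosity is labelled for LN and not for BM or spleen. No label says that replicate libraries came from separate animals, although sex-linked genes, given below, set the BM replicates apart. The p-values thus measure the spread between libraries.

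Cells that commit to division first license replication origins with the MCM helicase, then switch on genes for nucleotide supply and DNA synthesis under E2F control, and later express mitotic kinases, cyclin B and kinetochore proteins under the DREAM, MYB and FOXM1 complexes. In adult BM, long-term stem cells divide rarely, while committed myeloid, erythroid and B lineage progenitors divide fast. Resting lymphocytes of LN and spleen express few of these genes, except in germinal centers and activated T cells.

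The promoters of 5 members are printed here. Rrm2, Ccnb2 and Cdk1 were called lower in whole BM of Y665F (below), and Mcm5 and Mki67 were not called there. The set of RefSeq windows used held a window from 250 bases before to 50 bases after the start for 38 of the 44 members. It held none for Mcm4, Gins2, Ccne2, Ccna2, Aurkb and Tpx2. Each sequence below is the 200 bases before the RefSeq start on the gene's own strand (build GRCm38.p6), with matches on either strand to E2F letters (TTTGGCGC, TTTCCCGC, TTTGCCGC or TTTCGCGC), to the cell cycle homology region (CHR, TTTGAA) and to CCAAT in capitals. The E2F match on the other strand of Mcm5 overlaps the match on its own strand.
Mcm5, chr8:75109309-75109508, + strand: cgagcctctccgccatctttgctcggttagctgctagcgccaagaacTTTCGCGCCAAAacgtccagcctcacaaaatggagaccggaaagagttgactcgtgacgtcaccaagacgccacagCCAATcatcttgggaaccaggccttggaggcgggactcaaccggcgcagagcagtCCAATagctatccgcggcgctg
Rrm2, chr12:24708054-24708253, + strand: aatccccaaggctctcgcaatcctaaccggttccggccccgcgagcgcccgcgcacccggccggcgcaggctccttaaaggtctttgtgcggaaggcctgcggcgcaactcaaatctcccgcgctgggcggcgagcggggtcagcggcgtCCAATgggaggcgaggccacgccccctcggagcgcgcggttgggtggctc
Ccnb2, chr9:70421555-70421754, - strand: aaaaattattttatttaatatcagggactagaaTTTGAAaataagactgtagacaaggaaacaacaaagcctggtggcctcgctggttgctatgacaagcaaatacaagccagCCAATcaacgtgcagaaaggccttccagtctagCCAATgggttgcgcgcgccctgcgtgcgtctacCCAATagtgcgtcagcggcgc
Cdk1, chr10:69352913-69353112, - strand: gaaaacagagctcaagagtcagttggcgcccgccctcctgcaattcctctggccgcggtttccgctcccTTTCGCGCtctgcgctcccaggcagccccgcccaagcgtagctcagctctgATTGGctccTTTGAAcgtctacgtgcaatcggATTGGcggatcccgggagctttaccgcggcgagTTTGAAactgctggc
Mki67, chr7:135716380-135716579, - strand: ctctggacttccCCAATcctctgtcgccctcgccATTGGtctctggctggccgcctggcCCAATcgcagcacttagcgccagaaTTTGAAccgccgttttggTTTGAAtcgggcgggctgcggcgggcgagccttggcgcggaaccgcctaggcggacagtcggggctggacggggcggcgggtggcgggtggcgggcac

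Over the whole windows, the E2F letters were found in 8 of 20 S members (40%), in 1 of 18 G2/M members (5.56%, Cdk1) and in 2.26% of all 32851 RefSeq windows. CHR was found in 4 of 20 S members (20%), in 12 of 18 G2/M members (66.67%) and in 17.89% of all windows. CCAAT was found in 13 of 20 S members (65%), in 15 of 18 G2/M members (83.33%) and in 37.41% of all windows. A member counted as matched if any of its windows matched, whereas the share of all windows was taken per window. These matches are a description of the sequence.

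A barcode entered with 200 genes or more and mitochondrial UMIs of 10% or less, and UMIs (unique molecular identifiers, each counting a captured transcript) were summed per library or per marker gate. Levels are CPM, UMIs scaled to the same total in each library or gate. They were compared only within a tissue, between libraries or between gates, and S with G2/M sums only as a ratio. Levels of single genes were not compared with each other. Totals ran from 16399123 to 55768078 UMIs in BM, from 2621583 to 16101373 in LN and from 36889328 to 47206322 in spleen. Barcode sequences shared between libraries made up 1.54% to 2.89% of the smaller library in BM, 0.564% to 1.56% in LN and 0.133% to 0.342% in spleen.

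A BM library labelled Y665F replicate 2 stood apart: its lowest barcode had 1179 UMIs, against 500 in each other BM library, and none of its barcodes had under 500 genes, against 8.89% to 13.9% elsewhere. Its marker genes also separated the gates less: the GMP markers summed to 4069 CPM in its GMP gate, against 6588 to 12090 CPM in the other libraries. In BM, replicate 1 of each genotype expressed Xist (237 to 884 CPM) and replicate 2 expressed Ddx3y, so the replicates of a BM genotype were not from 1 and the same mouse, and these sex-linked genes went with the replicate number and not with genotype. By these genes the BM replicates differed in sex, whereas the study's methods describe tissues of male mice. The main fit held no term for sex or replicate number.

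In whole BM libraries, 14 members, led by Rrm2, Ccnb2, Gins2 and Cenpa, were lower in Y665F than in WT, while the MCM helicase genes and the proliferation markers Mki67, Top2a and Pcna were not called in this fit. Of the 44 members, 14 were called lower and 0 higher (edgeR quasi-likelihood test, adjusted p under 0.05 over 13923 genes). Among all genes tested 16.3% were called lower. The called members were 6 of 23 S genes and 8 of 21 G2/M genes. The median log2 fold change was -0.36 over the S members and -0.54 over the G2/M members, against 0.04 over all genes. Over 25 further G2/M genes, named in part below, it was 0.05, so the G2/M median holds for the listed members only. Fold changes here follow TMM scaling, which assumes that most genes do not differ, whereas CPM follows library totals. In a fit on library totals, the median over all genes was 0.20, 9 members were called lower (6 S genes with Ccnb2, Cenpa and Cdk1) and 0 higher, and 16 of 44 members were above 0, against 7 of 44 with TMM. Over all genes that fit called 10.6% lower and 16.9% higher, against 16.3% and 15% with TMM. A whole library mixes cell types, and fewer cells of a type cannot be told apart there from less RNA per cell.

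Rrm2, the small subunit of ribonucleotide reductase that supplies deoxynucleotides, was at 248 and 204 CPM for WT, 282 and 169 for Y665H and 36.0 and 40.9 for Y665F. Both Y665F libraries lay below all 4 others, with a log2 fold change against WT of -2.72 ± 0.27 (SE, adjusted p = 3.3e-05). Rrm1, which encodes the large subunit of the same enzyme, had a log2 fold change of -0.04 ± 0.24 (adjusted p = 0.92).

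Gins2, a subunit of the GINS complex that works with the MCM helicase at the fork, was at 81.8 and 94.4 CPM for WT, 99.8 and 87.0 for Y665H and 35.4 and 26.6 for Y665F. The Y665F libraries did not overlap the others, and Gins2 fell by 1.69 on the log2 scale (SE 0.24, adjusted p = 3.1e-04). Ccne1, cyclin E1 of the G1 to S transition, was at 48.0 and 33.5 CPM for WT, 49.9 and 37.2 for Y665H and 14.1 and 19.6 for Y665F. Here too the Y665F libraries were the lowest, with a log2 fold change of -1.43 ± 0.22 (adjusted p = 4.8e-04). Its relative Ccne2 was at 24.7 and 22.2 CPM for WT, 28.4 and 25.4 for Y665H and 16.7 and 24.5 for Y665F, groups that overlapped and gave adjusted p = 0.22.

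The other called S genes were Fen1, the flap endonuclease of Okazaki fragments (log2 fold change -1.40), Ung, the uracil DNA glycosylase (-1.35), and Tyms, thymidylate synthase (-1.21). Each was lower in both Y665F libraries than in every WT and Y665H library. Tyms, for instance, was at 146 and 171 CPM for WT, 183 and 178 for Y665H and 81.4 and 74.4 for Y665F.

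Of the replication licensing genes, none was called with TMM, and Mcm4 (log2 fold change -0.69, adjusted p = 0.023) and the loading factor Cdc6 (-0.73, adjusted p = 0.018) were called lower once a trend with transcript length, described below, was removed. Mcm5, a helicase subunit, was at 92.9 and 53.7 CPM for WT, 64.8 and 60.5 for Y665H and 63.9 and 85.1 for Y665F, and the groups overlapped (log2 fold change -0.11 ± 0.22, adjusted p = 0.72). The 6 MCM members ran from -0.50 (Mcm4, adjusted p = 0.11) to -0.07 (Mcm3, adjusted p = 0.84) on the log2 fold change scale with TMM. On library totals Mcm3, Mcm5 and Mcm7 were above 0 (0.083, 0.026 and 0.034), so the direction of these 3 genes depends on the scaling. Pcna, the sliding clamp of DNA polymerase, was at 205 and 188 CPM for WT, 211 and 208 for Y665H and 152 and 214 for Y665F (adjusted p = 0.40). E2f1, an activator of the S genes, was at 27.5 and 19.1 CPM for WT, 18.6 and 18.0 for Y665H and 20.7 and 28.5 for Y665F (adjusted p = 0.82). The Y665F and WT libraries overlapped in all 3 genes.

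Among G2/M genes, Ccnb2, cyclin B2 of the mitotic kinase, was at 116 and 122 CPM for WT, 148 and 96.3 for Y665H and 36.3 and 35.1 for Y665F. The log2 fold change was -1.92 ± 0.25 (adjusted p = 2.0e-04), with no overlap between Y665F and the other libraries. Cenpa, the centromeric histone variant, was at 296 and 307 CPM for WT, 376 and 304 for Y665H and 119 and 116 for Y665F, and fell by 1.54 on the log2 scale (SE 0.25, adjusted p = 6.0e-04). Cdk1, the kinase that cyclin B binds, was at 81.2 and 88.0 CPM for WT, 106 and 91.8 for Y665H and 36.6 and 44.2 for Y665F, and fell by 1.25 (SE 0.22, adjusted p = 0.0011). Cyclin B2 and its kinase were thus both lower in each Y665F library than in any other library.

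Ccnb1, the other cyclin B, was at 34.1 and 23.1 CPM for WT, 31.1 and 23.2 for Y665H and 13.7 and 21.1 for Y665F. The log2 fold change was -0.86 ± 0.24 (adjusted p = 0.013). The remaining called G2/M genes were Aurkb, Tacc3, Birc5 and Ube2c, whose log2 fold changes ran from -0.83 to -0.63 with adjusted p from 0.012 to 0.047. Plk1, polo-like kinase 1, was at 27.7 and 16.5 CPM for WT, 21.9 and 16.4 for Y665H and 10.4 and 19.2 for Y665F, and missed the threshold (adjusted p = 0.053).

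Mki67, the proliferation antigen Ki-67, was at 152 and 85.8 CPM for WT, 104 and 102 for Y665H and 127 and 230 for Y665F. Top2a, topoisomerase II of mitotic chromosomes, was at 203 and 186 CPM for WT, 195 and 204 for Y665H and 204 and 349 for Y665F. For both genes the high value was that of Y665F replicate 2, and the log2 fold changes of 0.45 ± 0.27 and 0.33 ± 0.26 passed no test (adjusted p = 0.22 and 0.36).

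**Figure D1:**
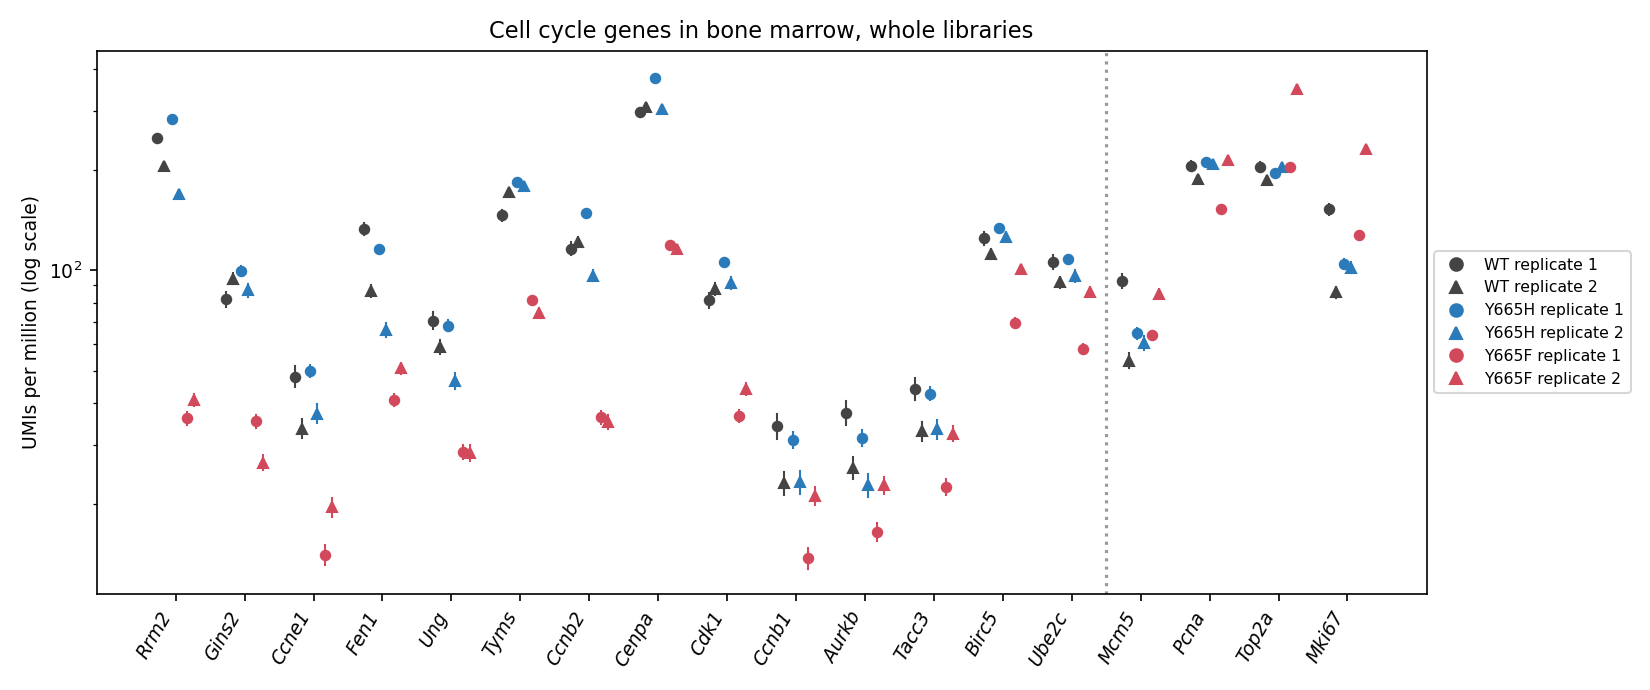
CPM (log axis) in each whole BM library for the 14 members called lower in Y665F and, right of the dotted line, for Mcm5, Pcna, Top2a and Mki67. Points are libraries, vertical bars are 95% Poisson counting intervals, and the Y665F points for Rrm2 (36.0 and 40.9 CPM) lie far below the 4 others (169 to 282 CPM).

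Each library decides part of the count, and the share of all genes called in the fits below is not given. Of the 14 called members, 9 (Rrm2, Tyms, Ung, Gins2, Fen1, Ccne1, Cdk1, Ccnb2 and Cenpa) were called in every fit that left out 1 of the 6 libraries, and the number called ran from 10 to 18. Without Y665F replicate 2 there were 18 calls, all lower, 12 of them G2/M genes. Without Y665F replicate 1 there were 10, of which 9 were lower and 1, the kinesin Kif11, was higher.

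Fold changes of Y665F against WT went with transcript length over all genes, as they did over the members. Spearman's rho between the log2 fold change and the length of the longest coding transcript was 0.44 over 12446 genes and 0.63 over the 44 members, which share the same libraries. In 5 length classes of all genes, from short to long, the median log2 fold changes were -0.46, -0.30, 0.06, 0.27 and 0.46. For Y665H against WT, rho over all genes was -0.33. UMIs from transcripts over 4000 bases made up 13.3% and 10.6% of WT libraries, 10.6% and 10.3% of Y665H libraries and 13.8% and 15.9% of Y665F libraries. UMIs from transcripts under 1500 bases, ribosomal protein genes left out, made up 23.3% and 21.7% of Y665F libraries, below the other 4 (24.7% to 29.6%), and mitochondrial UMIs 1.74% and 2.23%, above the other 4 (1.03% to 1.63%). The part of these RNA classes in the member values was not tested beyond the fit with the length trend removed.

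Of the 16 members with transcripts under 2500 bases 9 were called lower, with a median log2 fold change of -0.78. Of the 18 members from 2500 to 4000 bases 4 were called, with a median of -0.19, and of the 10 longer members 1, Cdk1, was called, with a median of -0.03. The share of all genes called lower in each of these length ranges was not counted, and short transcripts as a whole were lower in Y665F. Mki67, at 10061 bases, and Ccnb2, at 1531 bases, stand near the ends of that range. After the length trend over all genes was removed from each library, 12 of the 14 members were still called lower, Aurkb and Ube2c were not, and 15 members were called in all, with Mcm4, Cdc6 and Ccna2 besides. The share of all genes called in that fit is not given. In that fit Rrm2 was at -2.44, Ccnb2 at -1.38, Cdk1 at -1.55 and Mki67 at -0.10 on the log2 fold change scale.

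**Figure D2:**
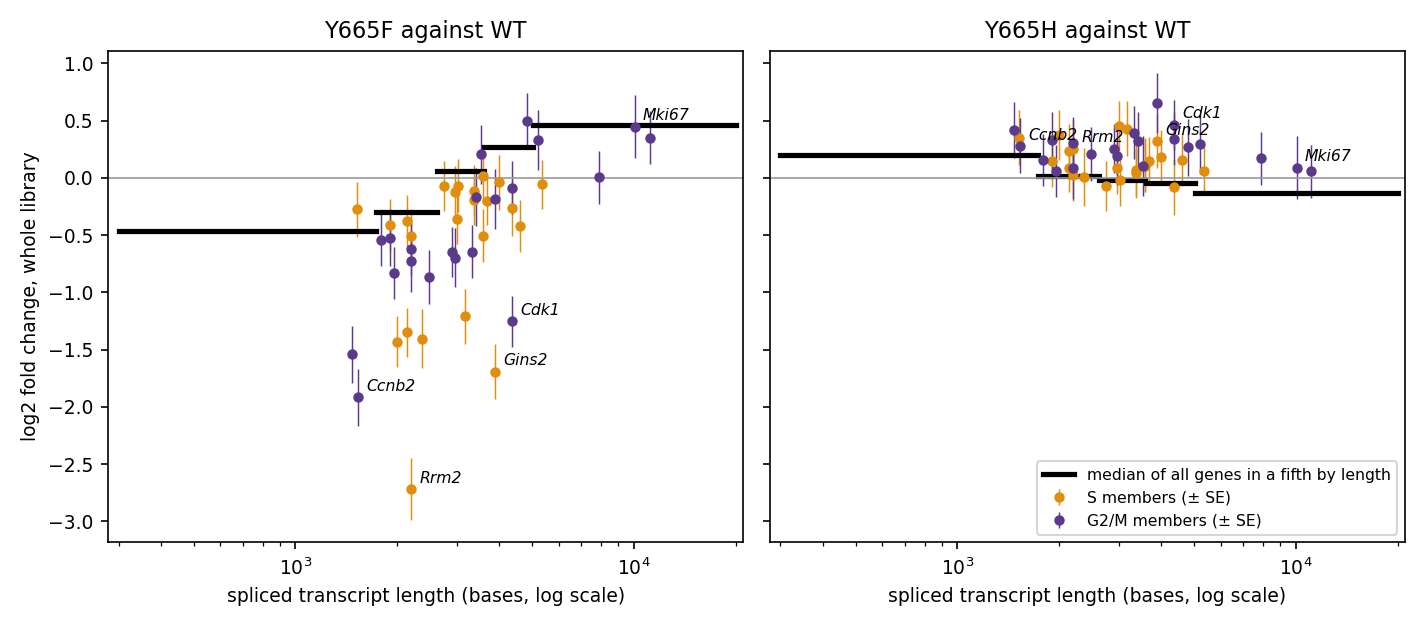
Log2 fold change in whole BM libraries against transcript length (bases, log axis) for S members (orange) and G2/M members (purple), with bars of ± 1 SE. Black lines are medians of all genes tested in 5 length classes, and they rise from -0.46 to 0.46 for Y665F against WT.

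Y665H and WT gave no call. Against WT, 0 of the 44 members and 0% of the 13923 genes were called by edgeR, 1 member had an unadjusted p under 0.05, and DESeq2 called 0 members with 3 at an unadjusted p under 0.05. The direction depended on the scaling. With TMM the log2 fold change was above 0 for 41 of 44 members, with medians of 0.11 over the S genes and 0.27 over the G2/M genes. On library totals it was above 0 for 16 of 44, with medians of -0.14 and 0.0034, where the median over all genes was -0.27. Between Y665F and Y665H, which shares its Y665F libraries with the comparison above, 24 members were called lower in Y665F (11 S and 13 G2/M) and 0 higher, where 22% of all genes were called lower. Rrm2 there had a log2 fold change of -2.97, Ccnb2 of -2.20 and Cdk1 of -1.72. The count for this pair was 10 without Y665H replicate 1 and 11 without Y665F replicate 1, and on library totals 10 members were called lower and 3 higher, where 10.9% of all genes were called lower and 38.2% higher.

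Other genes of the cycle were counted in 3 lists, to be read against the 16.3% of all genes called lower and the 15% called higher. Of 24 further S genes, 0 were called higher in Y665F than in WT and 9 lower, among them Tk1, the thymidine kinase (log2 fold change -2.04), Dscc1 (-1.54), Rpa2 of the single-strand binding complex (-1.20), Tipin (-1.17), Rad51ap1 (-1.07), Chaf1b (-0.75), Gins1 (-0.69) and Rfc2 (-0.68). Of 25 further G2/M genes, 3 were called lower, namely Cdca3 (-1.39), the securin Pttg1 (-0.80) and the checkpoint gene Mad2l1 (-0.68), and Gas2l3 was higher (1.64). Of 23 G1 regulators tested, 5 were lower and 5 higher. The median log2 fold change was -0.37 over the further S genes, 0.05 over the further G2/M genes and 0.09 over the G1 regulators. The lower ones were Ccnd1, cyclin D1 (-1.88), E2f4, a repressor of the DREAM complex (-1.56), Cdk4 (-1.0), the inhibitor Cdkn2c (-0.83) and Ccnd3 (-0.77). The higher ones were the inhibitors Cdkn1a (1.24) and Cdkn1c (0.86), Cdk6 (1.0), the repressor E2f7 (0.86) and Ccnd2, cyclin D2 (0.79). On library totals the calls were 6 lower among the S genes, 1 lower and 1 higher among the G2/M genes and 3 lower and 5 higher among the G1 regulators.

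Barcodes were then put into gates by lineage markers, none of which is a member. A gate is the set of barcodes in which the largest share of that class's markers was detected, and 37.4% to 52% of BM barcodes fell in none. Each gate was rich in its own markers, but the same markers set the gates, so this is no test of the gate names. Early erythroid barcodes made up 20.5% and 21.2% of WT libraries, 33.7% and 21.9% of Y665H libraries and 7.5% and 4.99% of Y665F libraries. The GMP gate (granulocyte and monocyte progenitors) held 18.1% and 11.8% of WT, 15.8% and 12.8% of Y665H and 27.2% and 38.4% of Y665F barcodes. Whole-library values thus rest on different mixtures, and the gates give the members within each class.

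Ccnb2 was called lower in Y665F than in WT in all 6 gates that could be fitted, and Rrm2 and Gins2 in 5 of the 6. With the length trend removed Ccnb2 was called in 4 gates, losing the stem cell and lymphoid-primed gates (adjusted p = 0.17 and 0.12), and Rrm2 and Gins2 in 5 each. Of the 44 members, 16 were called in at least 1 gate and 28 in none. Among the 14 called in whole BM, Birc5 and Tacc3 were called in no gate. Cenpa, Ccne1, Ccnb1, Aurkb and Ube2c were called in 1 gate each. For Cenpa, Ccne1 and Fen1 the whole-library log2 fold changes (-1.54, -1.43 and -1.40) lay below the lowest gate values (-1.27, -1.02 and -1.29). The log2 fold change was below 0 in every gate tested for 11 members and above 0 in every gate for 0. The shares of all genes that did the same were not counted. The gates also come from the same libraries, so these counts are a description. Against WT, Y665H gave 0 member calls and 0% of all genes called in each of these gates by edgeR, and DESeq2 called 0 members in each. At an unadjusted p under 0.05 there were 2 members in the stem cell, 7 in the lymphoid-primed, 2 in the GMP, 0 in the monocyte, 1 in the early erythroid and 1 in the B lineage gate. The share of all genes at that unadjusted threshold is not given, so these counts are a description. Without WT replicate 2, members were called higher in Y665H in the GMP and lymphoid-primed gates. The share of all genes called in those fits is not given either.

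In the early erythroid gate, 15 members were called lower (6 S and 9 G2/M) and 1, Mki67, higher, where 16.2% of all genes were called lower and 15.6% higher. Median log2 fold changes were -0.31 over the S members and -0.49 over the G2/M members. Over the further S and G2/M genes they were -0.32 and -0.04. On library totals 9 were called lower and 4 higher, where 11% of all genes were called lower and 20.9% higher. Rrm2 was at 322 and 269 CPM for WT, 342 and 207 for Y665H and 57.0 and 55.9 for Y665F (log2 fold change -2.57 ± 0.26, adjusted p = 3.2e-05). Ccnb2 was at 146 and 150 CPM for WT, 171 and 116 for Y665H and 45.0 and 39.6 for Y665F (-1.99 ± 0.24, adjusted p = 1.4e-04). Both genes were lower in the 2 Y665F libraries than in all others.

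Gins2 in the early erythroid gate was at 94.2 and 96.3 CPM for WT, 107 and 89.2 for Y665H and 45.9 and 28.1 for Y665F (-1.51). Tyms was at 179 and 196 CPM for WT, 204 and 180 for Y665H and 93.6 and 73.6 for Y665F (-1.34). Cdk1 was at 102 and 111 CPM for WT, 119 and 102 for Y665H and 47.0 and 54.2 for Y665F (-1.28). All 3 genes were lower in Y665F than in any other library. Cenpa was at 434 and 503 CPM for WT, 517 and 466 for Y665H and 243 and 199 for Y665F (-1.27). Both Y665F libraries were again the lowest. Mki67 was at 120 and 95.3 CPM for WT, 117 and 109 for Y665H and 157 and 235 for Y665F, and rose by 0.66 on the log2 scale (adjusted p = 0.032). That call was lost in 5 of the 6 fits that left out 1 library (adjusted p from 0.073 to 0.23, all but the fit without Y665F replicate 1), and with the length trend removed the log2 fold change was -0.0034 (adjusted p = 0.99). The early erythroid markers summed to 5636 and 3424 CPM in this gate in Y665F and to 11560 to 14310 CPM in the 4 other libraries, so the gated cells differed by genotype in marker level too, and the part of that in the member values was not tested. The count of calls fell without WT replicate 1, a fit for which the share of all genes called is not given.

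In the GMP gate, 6 members were called lower and 0 higher, against 9.18% of all genes called lower. Rrm2 was at 144 and 160 CPM for WT, 195 and 156 for Y665H and 30.1 and 39.5 for Y665F (log2 fold change -2.25 ± 0.31, adjusted p = 0.0016). Ccnb2 was at 95.3 and 120 CPM for WT, 130 and 104 for Y665H and 35.3 and 34.1 for Y665F (-1.77 ± 0.30, adjusted p = 0.0033). The 2 Y665F libraries were the lowest for both genes.

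Gins2 in the GMP gate was at 78.0 and 107 CPM for WT, 96.5 and 86.3 for Y665H and 34.9 and 27.0 for Y665F (-1.72). Ung was at 84.3 and 75.3 CPM for WT, 91.1 and 57.5 for Y665H and 31.2 and 27.3 for Y665F (-1.54). Cdk1 was at 51.0 and 73.6 CPM for WT, 85.3 and 88.2 for Y665H and 32.2 and 39.6 for Y665F (-0.96, adjusted p = 0.043). Fen1 was the remaining call (-1.14). The median over the S members was -0.03 and over the G2/M members -0.04 on the log2 fold change scale, so the calls lay in a few genes.

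In the lymphoid-primed gate, 6 members (Rrm2, Ung, Gins2, Fen1, Ccnb2 and Cdk1) were called, all lower, against 6.31% of all genes called lower. Rrm2 was at 101 and 106 CPM for WT, 162 and 124 for Y665H and 27.4 and 41.3 for Y665F (log2 fold change -1.60 ± 0.29, adjusted p = 0.0023). Ung was at 85.2 and 60.7 CPM for WT, 81.7 and 49.5 for Y665H and 26.5 and 30.3 for Y665F (-1.34). Both genes again had their lowest values in Y665F.

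Gins2 in the lymphoid-primed gate was at 57.3 and 82.8 CPM for WT, 97.4 and 76.8 for Y665H and 36.2 and 22.1 for Y665F (-1.31). Ccnb2 was at 64.3 and 91.9 CPM for WT, 97.9 and 88.3 for Y665H and 40.1 and 34.4 for Y665F (-1.11, adjusted p = 0.021). Cdk1 was at 56.5 and 69.8 CPM for WT, 99.0 and 56.5 for Y665H and 25.2 and 40.1 for Y665F (-0.98, adjusted p = 0.048). The call count fell without Y665F replicate 2 and without WT replicate 2, and the share of all genes called in those fits is not given.

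In the B lineage gate, 4 members were called lower, against 1.49% of all genes. Rrm2 was at 862 and 640 CPM for WT, 735 and 394 for Y665H and 76.6 and 85.9 for Y665F, a log2 fold change of -3.16 ± 0.40 (adjusted p = 8.5e-04). This was the largest fold change of a member in any gate. Gins2 was at 135 and 145 CPM for WT, 175 and 149 for Y665H and 43.6 and 19.5 for Y665F (-2.09). Tyms was at 291 and 329 CPM for WT, 389 and 376 for Y665H and 121 and 87.2 for Y665F (-1.57).

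Ccnb2 in the B lineage gate was at 177 and 153 CPM for WT, 230 and 147 for Y665H and 52.3 and 44.3 for Y665F (-1.74, adjusted p = 0.019). For each of the 4 genes Y665F did not overlap the other genotypes. The count fell without WT replicate 2 or either Y665F replicate and rose without WT replicate 1. With the replicate number, which went with the sex-linked genes, as a block the count was 9. The share of all genes called in these fits is not given, so the moves cannot be read as particular to the members.

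In the monocyte gate, 3 members were called lower, against 2.84% of all genes. Rrm2 was at 212 and 312 CPM for WT, 315 and 237 for Y665H and 39.6 and 65.7 for Y665F (log2 fold change -2.33, adjusted p = 4.7e-04). Ccnb2 was at 137 and 174 CPM for WT, 126 and 104 for Y665H and 45.2 and 38.2 for Y665F (-1.89). Gins2 was at 80.0 and 133 CPM for WT, 98.2 and 144 for Y665H and 52.3 and 27.5 for Y665F (-1.43, adjusted p = 0.031). The Y665F values were again the lowest in each case. The count fell without Y665F replicate 2 and rose without WT replicate 1. With the replicate block it was 5. The share of all genes called in these fits is not given.

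The stem cell gate, set by markers such as Hlf, Mecom and Procr, held 112 and 314 barcodes in WT, 182 and 193 in Y665H and 1366 and 919 in Y665F. Of 37 members tested there, 2 were called lower (2.92% of all genes were called lower) and 1 higher (1.48% higher). Medians were 0.25 over the S members tested and 0.74 over the G2/M members tested on the log2 fold change scale, against 0.02 over all genes. Only 16 of the 21 G2/M members passed the filter on low counts. A member could pass it through the Y665F libraries alone, so this median favors members that are high there. The G2/M sum in this gate was 729 CPM in Y665F replicate 1, between the WT libraries (943 and 614 CPM), and 1556 CPM in Y665F replicate 2.

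Mki67 in the stem cell gate was at 77.7 and 39.0 CPM for WT, 58.8 and 99.3 for Y665H and 97.5 and 244 for Y665F, and rose by 1.67 ± 0.41 (adjusted p = 0.027). The lower Y665F library lay between the Y665H libraries, and the higher was replicate 2. Without Y665F replicate 2 the log2 fold change of Mki67 was 0.93 (adjusted p = 0.18), and with the length trend removed it was 1.10 (adjusted p = 0.10). Without WT replicate 2 no member was called in this gate, without Y665F replicate 1 there were 10 calls (9 higher), without WT replicate 1 there were 2 (both higher) and without Y665F replicate 2 there were 2 (both lower). With the replicate block there were 5. The share of all genes called in each of these fits is not given, so the moves cannot be read as particular to the members.

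The 2 lower genes were Ung and Ccnb2. Ung was at 60.8 and 52.7 CPM for WT, 73.5 and 40.4 for Y665H and 18.0 and 27.0 for Y665F (-1.29 ± 0.36, adjusted p = 0.043). Ccnb2 was at 87.9 and 60.5 CPM for WT, 51.4 and 46.6 for Y665H and 23.2 and 34.9 for Y665F (-1.27 ± 0.32, adjusted p = 0.030). Both were lowest in Y665F, and neither was called with the length trend removed (adjusted p = 0.089 and 0.17) or by DESeq2 (adjusted p = 0.085 and 0.060).

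Top2a, Mcm5 and Pcna did not pass the test in the stem cell gate. Top2a was at 162 and 93.6 CPM for WT, 125 and 149 for Y665H and 153 and 349 for Y665F (adjusted p = 0.073). Mcm5 was at 40.6 and 37.1 CPM for WT, 63.7 and 62.1 for Y665H and 40.9 and 67.4 for Y665F (adjusted p = 0.35), and Pcna at 149 and 125, 171 and 214, and 118 and 200 CPM (adjusted p = 0.58). In all 3 genes Y665F replicate 2 was higher than Y665F replicate 1.

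Cdk1 in the stem cell gate was at 50.7 and 35.1 CPM for WT, 53.9 and 55.9 for Y665H and 27.1 and 47.4 for Y665F (adjusted p = 0.86). E2f1 was at 20.3 and 23.4, 7.35 and 27.9, and 21.4 and 20.5 CPM (adjusted p = 0.98), and Ccne2 at 16.9 and 11.7, 9.79 and 27.9, and 13.3 and 22.3 CPM (adjusted p = 0.71) in the same order. Ccne1, Ccnb1 and Plk1 were too low to be tested there. Ccne1 had 1 and 5 UMIs in WT, Ccnb1 had 4 and 3 and Plk1 had 2 and 2, so a difference in these genes was not detectable at this depth.

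The neutrophil gate held 2 and 14 barcodes in WT, 16 and 9 in Y665H and 207 and 190 in Y665F. None of the members passed the filter on low counts in it, so the gate gave no member test.

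**Figure D3:**
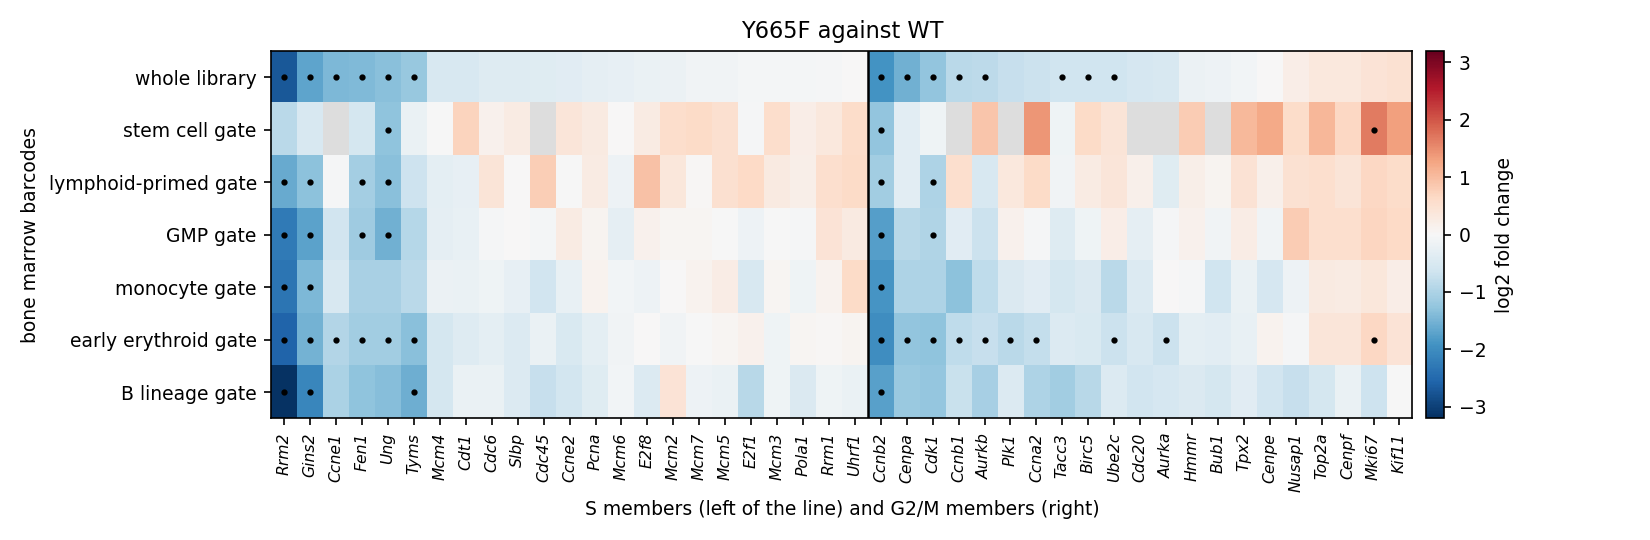
Log2 fold change of Y665F against WT for the 23 S members (left) and 21 G2/M members (right) in whole BM libraries and 6 gates, in red for higher and blue for lower. Dots mark an adjusted p under 0.05 and grey cells were not tested; Rrm2, Gins2 and Ccnb2 are dark blue in nearly every line, while the stem cell line is mostly red over the G2/M genes.

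Summed over members, the B lineage gate had the highest S and G2/M levels of the 6 gates in every WT and Y665H library, and the stem cell gate had the lowest, except for the S level in Y665H replicate 2. The 23 S genes together made 3873 and 3224 CPM in the B lineage gate of WT and 1561 and 1320 CPM in the stem cell gate. The 21 G2/M genes made 4671 and 2347 CPM in the former and 943 and 614 CPM in the latter. In Y665F replicate 1 the G2/M sums were 1849 CPM of G2/M genes in the B lineage gate and 729 CPM in the stem cell gate. In Y665F replicate 2 they ran only from 1460 to 2133 CPM over the 6 gates.

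Cycling barcodes were counted among barcodes of at least 1000 UMIs, each thinned to 1000 UMIs and called cycling at 2 or more member UMIs. Barcodes left out as too shallow made up 28.1% and 17.0% for WT, 18.9% and 21.9% for Y665H and 21.8% and 0% for Y665F, so the shares cover the deeper barcodes only, and unequally so. The share was 74.5% and 67.3% in WT, 73.9% and 76.9% in Y665H and 55.0% and 84.2% in Y665F. The 2 Y665F libraries lay on either side of the 4 others, so no direction can be read for the genotype. In the stem cell gate the shares were 44.9% and 48.4% in WT, 50.6% and 65.9% in Y665H and 41.7% and 80.1% in Y665F. Exact 95% binomial intervals for this gate, which cover counting error only, ran from 34.8% to 55.3% in WT replicate 1 and from 77.4% to 82.6% in Y665F replicate 2. Intervals of the other libraries are not given. Y665F replicate 1 lay below both WT libraries, so no direction can be read for the genotype in this gate either. The neutrophil gate, set by immature and mature neutrophil markers, was at 35.5% and 70.5% in Y665F. It can hold dividing immature cells, so these values are no baseline for the other gates. How far the cut of 2 UMIs also counts non-dividing cells was not tested. Without thinning the whole-library shares were 79.2% to 97.8%.

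The ratio of S to G2/M UMIs was 1.58 and 1.37 in WT, 1.37 and 1.30 in Y665H and 1.5 and 1.24 in Y665F. The groups overlapped. In the stem cell gate the ratio was 1.66 and 2.15 in WT, 2.31 and 2.19 in Y665H and 1.64 and 1.21 in Y665F, and in the B lineage gate 0.829 and 1.37, 1.02 and 1.08, and 0.961 and 1.06. Stem cell gates thus had more S than G2/M UMIs relative to B lineage gates in each library.

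**Figure D4:**
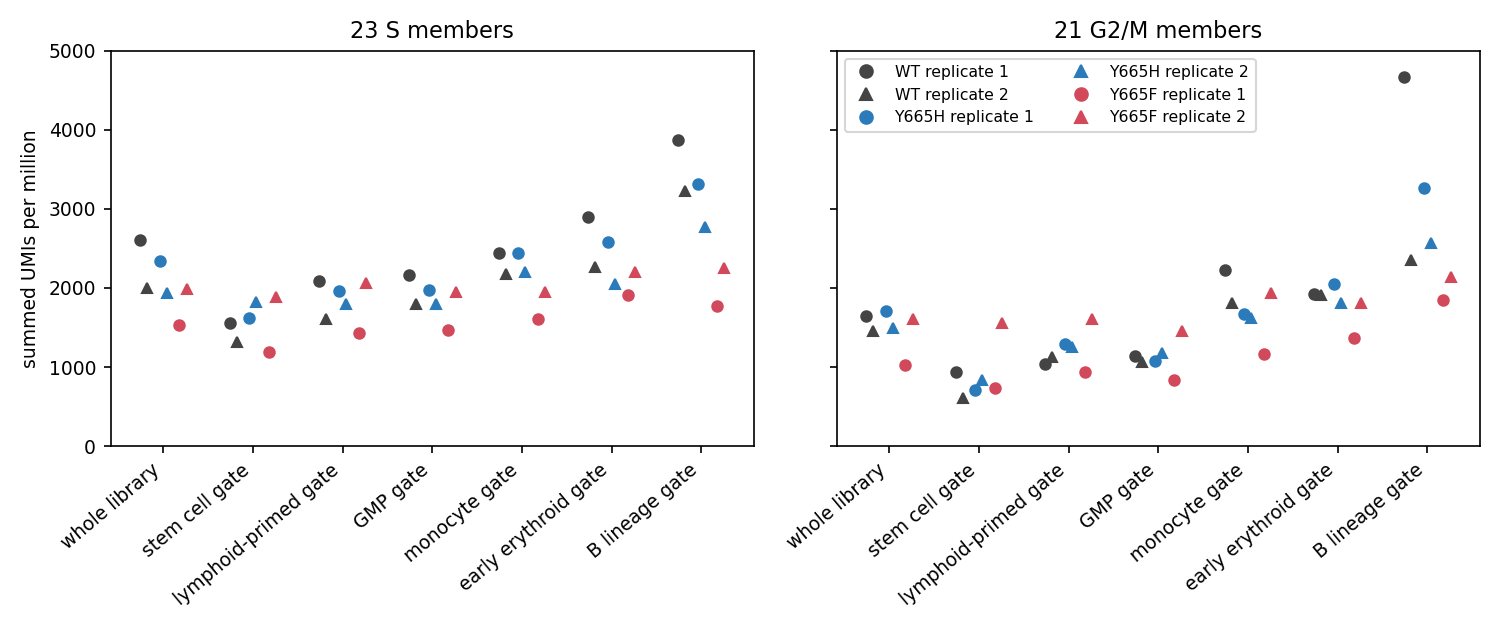
Summed levels in CPM of the 23 S members (left) and 21 G2/M members (right) per BM library in whole libraries and 6 gates, on a linear axis from 0. Circles are replicate 1 and triangles replicate 2; the Y665F triangles for G2/M genes stay between 1460 and 2133 CPM in the gates while the WT circles run from 943 to 4671 CPM.

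In LN, members were at low levels in every genotype, and none was called in whole libraries. The S genes summed to 658 and 739 CPM for WT, 616, 603 and 626 in heterozygous and 636 and 584 in homozygous Y665F, so both WT libraries lay above the 5 others, a description with no test. The G2/M genes summed to 138 to 352 CPM over the 7 libraries, with overlap. Median log2 fold changes against WT were -0.18 (S) and -0.30 (G2/M) for homozygous libraries. For heterozygous libraries they were -0.17 and -0.84. The median over all genes is not given here. Against WT, Y665F homozygous gave 0 calls among 44 members (4.6% of all genes were called) and Y665F heterozygous gave 0 (1.65% of all genes). At an unadjusted p under 0.05 there were 6 and 15 members, and DESeq2 called 0 and 1. The share of all genes at that unadjusted threshold is not given, so the 6 and 15 cannot be read as particular to the members. Y665F heterozygous replicate 3 and homozygous replicate 1 were shallow, with medians of 368 and 395 UMIs per barcode before filtering.

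Mki67 in whole LN libraries was at 26.4 and 54.3 CPM for WT, 17.1, 21.4 and 24.9 CPM in heterozygous and 25.3 and 28.2 CPM in homozygous Y665F. Top2a was at 21.9 and 39.1 CPM for WT, 21, 17.2 and 28.7 CPM in heterozygous and 22.1 and 24.7 CPM in homozygous Y665F. For both genes WT replicate 2 was the highest library. The 3 heterozygous libraries were below the other 4 for Mki67, while for Top2a the groups overlapped once WT replicate 2 was set aside. Mcm5 was at 35.2 and 36.7 CPM for WT, 27.7, 28.0 and 29.1 CPM in heterozygous and 31.6 and 25.1 CPM in homozygous Y665F. Both WT libraries were above all 5 others for Mcm5, but the test did not pass (log2 fold changes -0.27 and -0.28, adjusted p = 0.29 and 0.25). Pcna was at 74.2 and 92.2 CPM for WT, 87.9, 80.9 and 76.7 CPM in heterozygous and 76.2 and 74.7 CPM in homozygous Y665F, with no separation.

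Within LN gates, the CD8 T gate gave the only call. Ube2c, the ubiquitin-conjugating enzyme of the anaphase-promoting complex, was at 0 and 10.9 CPM for WT, 7.12, 4.29 and 31.2 CPM in heterozygous and 29.6 and 29.2 CPM in homozygous Y665F. These values rest on 0 and 42, 57, 15 and 18, and 21 and 72 UMIs. The fold in the homozygous libraries was 2.02 ± 0.52 on the log2 scale (adjusted p = 0.047), where 1.3% of all genes were called higher. The heterozygous library of replicate 3 had a level like the homozygous ones, and the call was lost without WT replicate 1 (adjusted p = 0.066), without heterozygous replicate 1 (0.056) and without homozygous replicate 1 (0.12) or 2 (0.42). DESeq2 did not call it. More members were called without WT replicate 2, a fit for which the share of all genes called is not given.

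No other member was called in a LN gate. Counts of 0 were found for heterozygous CD8 T (0.979% of all genes called), for conventional CD4 T (0.618% homozygous, 0.34% heterozygous) and for B barcodes (0.0112% each). At an unadjusted p under 0.05 these 5 comparisons had 2, 0, 4, 0 and 5 members, with heterozygous after homozygous for CD4 T and B, and DESeq2 called 0 in each. Here too no share of all genes at the unadjusted threshold is given. Without WT replicate 1, members were called lower in heterozygous CD4 T barcodes and in whole libraries of each zygosity. Without WT replicate 2, a member was called higher in homozygous CD4 T barcodes. The share of all genes called in those fits is not given. Only 38, 20 and 22 members passed the filter on low counts in the CD8 T, CD4 T and B gates.

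Mki67 in the CD8 T gate was at 6.48 and 26.8 CPM for WT, 14.2, 21.7 and 34.7 CPM in heterozygous and 40.8 and 26.7 CPM in homozygous Y665F (adjusted p = 0.43 for homozygous). The G2/M genes summed to 46.0 and 201 CPM for WT, 126, 130 and 238 CPM in heterozygous and 277 and 231 CPM in homozygous Y665F. WT replicate 1 was the lowest library in both measures. Median log2 fold changes over the members tested there were 0.07 (S) and 0.85 (G2/M) for homozygous libraries. For heterozygous libraries they were -0.07 and -0.04. A member could pass the filter on low counts through a single genotype, so these medians are a description. Of the further lists, Myc was higher in whole libraries (0.76 homozygous, 0.58 heterozygous) and in the CD8 T gate (0.61 and 0.56). Smc4 was higher in homozygous whole libraries (0.70) and CD8 T barcodes (0.64), and Cks2 in the latter (0.89).

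Among LN barcodes of at least 300 UMIs, thinned to 300, 2.18% and 2.65% of barcodes were called cycling for WT, 1.94%, 2.02% and 2.41% in heterozygous and 1.99% and 2.07% in homozygous Y665F. Too shallow for this count were 18.5% of barcodes in heterozygous replicate 3 and 15.4% in homozygous replicate 1, against 0% in the other 5 libraries. WT lay above homozygous and overlapped heterozygous libraries, but not so among barcodes with at least 500 genes. There the 2 shallow libraries kept 234 and 274 barcodes and stood at 18.8% and 13.1%, with the other 5 between 1.87% and 2.69%. Germinal center B barcodes were numerous enough only in WT (22 and 30), where 68.2% and 43.3% were cycling. Regulatory T barcodes had G2/M sums of 707 and 757 CPM for WT, 431, 467 and 2066 CPM in heterozygous and 636 and 433 CPM in homozygous Y665F, above the conventional CD4 T gate of the same library in all 7. The value of 2066 CPM rests on 36 UMIs in 37 barcodes.

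In spleen, with 1 library per genotype and no test, the mitotic genes were higher in Y665F, and less so in Y665H, than in WT. The 21 G2/M genes summed to 189 CPM for WT, 308 for Y665H and 455 for Y665F, while the 23 S genes summed to 427, 481 and 565 CPM. The S to G2/M ratio was 2.25 in WT, 1.56 in Y665H and 1.24 in Y665F. The Y665F library also differed in RNA composition, with 1.45% of UMIs from Malat1 against 2.44% for WT and 2.32% for Y665H, and 16.9% from transcripts over 4000 bases against 19.9% and 19.7%. The part of this in the member values was not tested. Differences between these libraries have no replicate check, and intervals below cover counting error only.

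Of the 21 G2/M members, 20 had a ratio of Y665F to WT with a 95% interval above 1 and 1, Cenpa, an interval below 1 (ratio 0.878). The median ratio was 2.95. Of the 23 S members 19 had an interval above 1 and 1, Gins2, below 1 (0.80), with a median of 1.34. For Y665H, 20 G2/M members and 15 S members had an interval above 1 and none below, with medians of 1.85 and 1.15. The share of all genes with such an interval was not counted. Counting intervals are narrow at these totals, so the counts cannot be read as particular to the members.

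Mki67 was at 33.1 CPM in spleen WT, 61.2 for Y665H and 92.8 for Y665F. Top2a was at 25.2, 47.3 and 84.0 CPM, Mcm5 at 14.4, 19.2 and 22.8 CPM and Pcna at 72.0, 74.5 and 92.5 CPM in the same order. Among these 4 genes the ratio of Y665F to WT was highest for Top2a (3.33) and lowest for Pcna (1.28), and other S members such as Cdc6 (3.91) lay above both mitotic markers. The members with the highest ratios of Y665F to WT were E2f8 (5.89), Rrm2 (5.09) and Cdk1 (4.90). Rrm2 and Cdk1 were among the genes lower in Y665F BM.

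The G2/M difference was uneven over the spleen gates. In the neutrophil gate the sum was 53.2 CPM for WT, 150 for Y665H and 1657 for Y665F, a ratio of Y665F to WT of 31.1 (interval 17.8 to 60.3, with 12 UMIs in WT). Markers of immature neutrophils, such as Camp and Ngp, summed there to 11150 CPM for WT, 15500 for Y665H and 89440 for Y665F. The median barcode had 2904, 3000 and 8119.5 UMIs. The part of these in the difference was not tested. At 2000 UMIs per barcode, 0 of 65 WT (which allows up to 5.52%), 1.58% of Y665H and 14.4% of Y665F neutrophil barcodes had 2 or more G2/M UMIs.

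The monocyte gate went from 93.0 CPM for WT to 283 for Y665H and 1700 for Y665F, on 40, 82 and 31 barcodes. In Y665F this gate also held 803 CPM of GMP markers, against 2.82 CPM for WT. The natural killer gate went from 78.3 to 115 and 684 CPM, on 41, 45 and 159 UMIs in 122, 81 and 56 barcodes. In the regulatory T gate the highest library was Y665H, with 784 CPM against 223 CPM for WT and 303 for Y665F. The share of its barcodes with 2 or more G2/M UMIs, after thinning to 2000 UMIs, did not follow that order, with 5 of 207 barcodes for WT (2.42%, exact interval 0.789% to 5.55%), 7 of 190 for Y665H (3.68%, 1.49% to 7.44%) and 13 of 314 for Y665F (4.14%, 2.22% to 6.98%). The 3 intervals overlapped, and unthinned shares were 12.3%, 15.1% and 12.2%. The CD8 T gate was at 199, 274 and 268 CPM and the conventional CD4 T gate at 97.7, 197 and 159 CPM for WT, Y665H and Y665F. The ungated barcodes, which held 7305 of the 16668 G2/M UMIs of Y665F, were at 274 CPM for WT, 431 for Y665H and 905 for Y665F. In the B gate the order was reversed and the span small, with 121 CPM for WT, 114 for Y665H and 97.0 for Y665F.

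Shares by 2 member UMIs did not show this, at 24.5% in WT, 23.6% in Y665H and 24.6% in Y665F. Mature B barcodes had 24.0% to 28.0% by the same count, so the whole-library share lies at the level of that mature class. With 2 or more G2/M UMIs the shares were 2.24%, 3.26% and 4.29%.

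**Figure D5:**
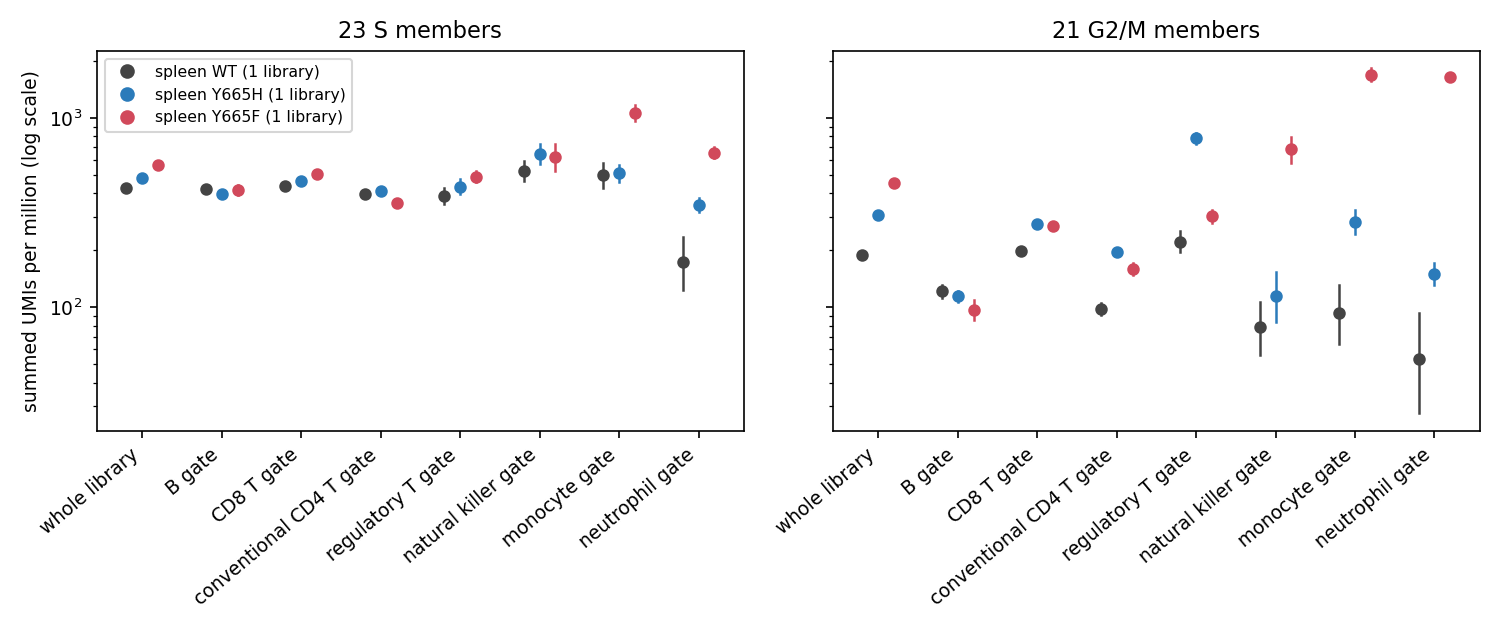
Summed levels in CPM (log axis) of S members (left) and G2/M members (right) in whole spleen libraries and 7 gates, 1 library per genotype, with 95% Poisson intervals. The G2/M points of Y665F reach 1657 CPM in the neutrophil gate and 1700 CPM in the monocyte gate, against 53.2 and 93.0 CPM for WT, while the 3 genotypes lie between 97.0 and 121 CPM in the B gate.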

How the data were processed

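Barcoded droplet libraries (10x Genomics) were deposited as matrices of UMI counts, which the authors made with Cell Ranger (version 5.0.0 in LN headers and 6.0.0 in the others, per the file headers; the labels' processing notes name Cell Ranger 5.0 and Seurat 4.0) on GRCm38. Labels name a 3′ kit and the methods a 5′ kit, so values were compared only within a tissue. The 44 members and the further lists were chosen with earlier results of these data known, and 7 T cell receptor libraries were not used. Barcodes needed 200 genes and at most 10% mitochondrial UMIs. A BM barcode joined the class with the largest share of its markers detected, by a lead of 0.1, with at least 2 markers for stem cell and lymphoid-primed and 3 or 4 for others; LN and spleen gates used marker minima. UMIs were summed per library and gate, normalized by TMM, filtered by filterByExpr and tested with the edgeR 4.0.16 quasi-likelihood test, all genotypes of a tissue in 1 model, with Benjamini-Hochberg adjustment over all genes. Called means an adjusted p under 0.05. Counts at an unadjusted p, and counts in alternative fits given without a share of all genes, describe the members only, since their background is not given. A member with near-identical copies elsewhere may be undercounted, since only reads assigned to a single gene become UMIs. Named genes were the 3 S and 3 G2/M calls with the largest fold change in each comparison, 10 genes always given in whole BM and the stem cell gate (Mcm5, Pcna, Ccne1, Ccne2, E2f1, Mki67, Top2a, Ccnb1, Cdk1 and Plk1), and Mki67, Top2a, Mcm5, Pcna and called members in LN and spleen. Members named outside this rule were chosen after their values were seen. Thinning was to 1000 (BM), 300 (LN) and 2000 (spleen) UMIs. Spleen intervals were exact Poisson or binomial at 95%. Alternatives were DESeq2 1.42.0, other normalization and filters, 500 genes, doublet removal (Scanpy 1.11.5, 0.8% per 1000 barcodes), stricter gates, a replicate block, other cycling counts and, chosen after seeing the data, library totals without TMM, the length trend as an offset and counts of 2 G2/M UMIs. Scripts were tested on simulated data. Python 3.11.15 and R 4.3.3 were used. A gene of the further S list is not reported here by name.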

Additional observations from a re-analysis of the deposited data

Results flagged for a closer look

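For 12 members both Y665F libraries were below both WT libraries in whole BM, while the Y665F library was above the WT library in spleen with an interval above 1. The search covered only members called lower in whole BM and the genes always given there. Being lower in BM was thus partly set by the search, and the share of all genes with this pattern was not counted. The difference between the tissues was not tested, since spleen has 1 library per genotype, the tissues may come from different kits, and the libraries hold different cells. As the log2 ratio of Y665F to WT in spleen minus that in BM, the difference was 4.90 for Rrm2 (2.35 in spleen and -2.56 in BM), 3.37 for Ccnb2 (1.63 and -1.74) and 3.36 for Cdk1 (2.29 and -1.07). It was 2.29 for Ccnb1, 2.27 for Aurkb, 2.21 for Tyms, 2.19 for Ube2c and 2.14 for Birc5. It was 1.66 for Ccne1, 1.60 for Ung, 1.57 for Fen1 and 1.36 for Tacc3.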

How the results depend on the processing

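Counts of called members changed by over 1.5 times under these settings. With a fold over 2 also required, 9 members were called in whole BM for Y665F against WT (14 without it), 11 against Y665H (24) and 8 in the early erythroid gate (16). In the stem cell gate 1 member was called by DESeq2, 0 with a stricter gate, 0 with the length trend removed and 1 with it removed under a replicate block (3 in the fit reported). The stricter GMP gate gave 10 calls (6). In LN, no filter on low counts gave 1 call for whole homozygous, 17 for whole heterozygous, 2 for homozygous CD8 T, 1 for heterozygous CD4 T and 1 for heterozygous B barcodes; DESeq2 gave 1 for whole heterozygous and 0 for homozygous CD8 T; at least 500 genes gave 1 for heterozygous CD4 T and 1 for heterozygous B barcodes, and the stricter B gate 1. On library totals without TMM, an alternative chosen after seeing the data, there were 9 calls in whole BM for Y665F against WT and 13 against Y665H. The cause was not tested. The replicate number is shared by groups but nothing says that it pairs mice. In BM it went with Xist and Ddx3y, so a replicate block there also stands for sex. Deviations of same-numbered BM libraries correlated at 0.31 (WT and Y665H), 0.052 (WT and Y665F) and 0.305 (Y665H and Y665F), and those of LN from -0.115 to 0.0751; in the early erythroid gate they were 0.334, 0.174 and 0.321, with 2 numbers only. With the replicate block, 16 members were called in whole BM for Y665F against WT, 5 in the stem cell gate, 5 in the monocyte gate (3) and 9 in the B lineage gate (4), or 11 with the length trend removed as well; no other count moved by over 1.5 times under the block.

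Leaving out 1 library at a time, calls for Y665F against WT ran from 10 to 18 in whole BM, from 0 to 10 in the stem cell gate, from 1 to 9 in the lymphoid-primed, from 5 to 9 in the GMP, from 1 to 7 in the monocyte, from 9 to 16 in the early erythroid and from 1 to 8 in the B lineage gate. They ran from 10 to 26 for Y665F against Y665H, from 0 to 1 and from 0 to 4 for Y665H against WT in the lymphoid-primed and GMP gates, from 0 to 1 in whole LN for each zygosity, from 0 to 4 for homozygous CD8 T, and from 0 to 1 homozygous and from 0 to 4 heterozygous for CD4 T barcodes. Where this leaves 1 library in a group, it is assumed to vary like the others. The share of all genes called in these fits is not given, so a moved count may not be particular to the members.

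The median cycling share over libraries depended on its definition. In BM (74.2%) it was 57.4% at 3 member UMIs, 59.9% at 1 G2/M UMI, 34.3% at 2 G2/M UMIs and 47.2% with thinning to 0.5 of the depth. In LN (2.07%) it was 0.652%, 2.44%, 0.373% and 0.761%, with 13.2% unthinned and 2.58% at 500 genes, where heterozygous replicate 3 went from 2.41% to 18.8% and homozygous replicate 1 from 1.99% to 13.1%, and their S to G2/M ratios from 2.70 to 1.11 and from 3.29 to 1.32. In spleen (24.5%) it was 8.68%, 14.7%, 3.26% and 9.61%, with 66.1% unthinned. Without the most abundant member of each list the S to G2/M ratio was 1.55 in BM (1.37) and 1.65 in spleen (1.56), where it was 1.60 without doublets; the median spleen ratio of Y665F to WT over the members was then 2.32 (2.27). Members under about 10 UMIs, such as Ccne1 in the stem cell gate, were limited by depth.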
